A study of Homo sapiens with 9 samples.

Results

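Long noncoding RNAs (lncRNAs) are transcripts that encode no known protein, and 10 of them that are named in connection with prostate cancer or with cancer in general are described here: PCA3, PCGEM1, PCAT1, SCHLAP1, PART1, DRAIC, MALAT1, NEAT1, H19 and MEG3. They were chosen by gene symbol, not by level, and all 10 symbols had a row in the deposited table of 28216 genes. RNA came from established human prostate cancer cell lines, with 3 libraries in each of 3 groups. PC3, a line from a bone metastasis that is known to grow without androgen, was untreated and kept in F12K medium with 10% FBS. LNCaP (clone FCG), a line from a lymph node metastasis that carries an androgen receptor, was first held for 24 h in RPMI without phenol red that contained 10% charcoal-stripped FBS, a serum low in steroid hormones. It was then treated for 48 h with 10 nM dihydrotestosterone (DHT), the active androgen of the prostate, or with its vehicle, 0.01% ethanol. The labels give the genotype of all libraries as WT and name DHT, whereas the main text of the study names the synthetic androgen R1881. Cell line, medium, serum and treatment all differed between PC3 and the LNCaP groups, so their parts in a difference cannot be told apart. The labels do not say that the 3 libraries of a group came from separate cultures, so the p-values measure only the spread between these libraries.

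Some lncRNAs act in the nucleus as scaffolds for proteins and others carry a silencing or activating complex to chromatin, and many are known to be made in few cell types. PCA3 is transcribed within the gene PRUNE2 on the opposite strand and is measured in urine as a marker of prostate cancer. PCGEM1, PCAT1, SCHLAP1, PART1 and DRAIC are all known from prostate tissue or prostate cancer cells, and androgen is known to raise PCA3 and PART1 and to lower DRAIC. MALAT1 and NEAT1 are abundant in most cells: MALAT1 gathers in nuclear speckles, where splicing factors are stored, and NEAT1 is the core of paraspeckles, which hold RNA-binding proteins. H19 and MEG3 are imprinted, which means that they are transcribed from 1 parental chromosome.

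The libraries were made from RNA enriched for poly(A) tails, so how each transcript ends bears on what could be measured. A polyadenylation signal (AATAAA or ATTAAA) lay in the last 60 bases of 49.3% of the 56355 annotated lncRNA transcripts of that length or more. The ends of PCGEM1 and of a short and the long NEAT1 transcript are shown 5′ to 3′ with the signal in capitals.
PCGEM1, 1590 bases: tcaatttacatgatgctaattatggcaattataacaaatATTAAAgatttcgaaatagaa
NEAT1, 2994 bases: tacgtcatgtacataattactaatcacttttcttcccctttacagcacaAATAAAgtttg
NEAT1, 22743 bases: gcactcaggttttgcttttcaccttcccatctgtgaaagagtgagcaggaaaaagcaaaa
The long NEAT1 transcript had no signal there, and its longest run of A was 22 bases, from base 18046. MALAT1 is likewise known to end without a canonical poly(A) tail, and its transcript of 10434 bases held a run of 13 A from base 8459. An annotated MALAT1 transcript of 4983 bases ended in this same run of 13 A. The NEAT1 and MALAT1 runs are shown in capitals because an oligo(dT) bead can also bind a run of A in the transcript's own sequence.
NEAT1, around its longest run of A: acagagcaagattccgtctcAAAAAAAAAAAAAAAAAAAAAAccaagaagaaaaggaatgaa
MALAT1, around its longest run of A: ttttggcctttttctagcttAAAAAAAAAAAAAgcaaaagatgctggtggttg
The levels of MALAT1 and NEAT1 are therefore those of the molecules that this selection kept, and the part of the selection in their differences was not tested. Counts per gene do not separate the short NEAT1 transcript from the long one.

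The libraries held between 17397706 and 25640325 counts on genes, and a further 20.3% to 25.4% of reads per library were assigned to no gene. That share also holds unmapped reads, reads that map to several places and reads that overlap several genes. Levels are given in CPM, a count divided by the library's size after TMM scaling and set to a fixed total, and 3 counts, the upper limit that a count of 0 allows, equalled 0.118 to 0.165 CPM. Epithelial markers (KRT8, KRT18, EPCAM and CDH1) were above 3 counts in every group, and summed to 449 to 458 CPM in PC3 cells, 1266 to 1290 in vehicle-treated and 3425 to 3725 in DHT-treated LNCaP cells. Leukocyte markers summed to at most 0.787 CPM in any library, endothelial markers to at most 18.4 and fibroblast markers to at most 48.7. As a check of the labels, KLK3, which encodes prostate-specific antigen, had 86989 to 88995 counts in DHT-treated and 9831 to 12789 in vehicle-treated LNCaP libraries, and 2, 2 and 20 counts in the PC3 libraries. A gene was tested where more than 3 CPM were reached in at least 3 libraries of a comparison. It was called where the level differed 2-fold or more and the adjusted p-value of edgeR's quasi-likelihood test was under 0.05. The 3 comparisons share libraries with each other.

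**Figure D1:**
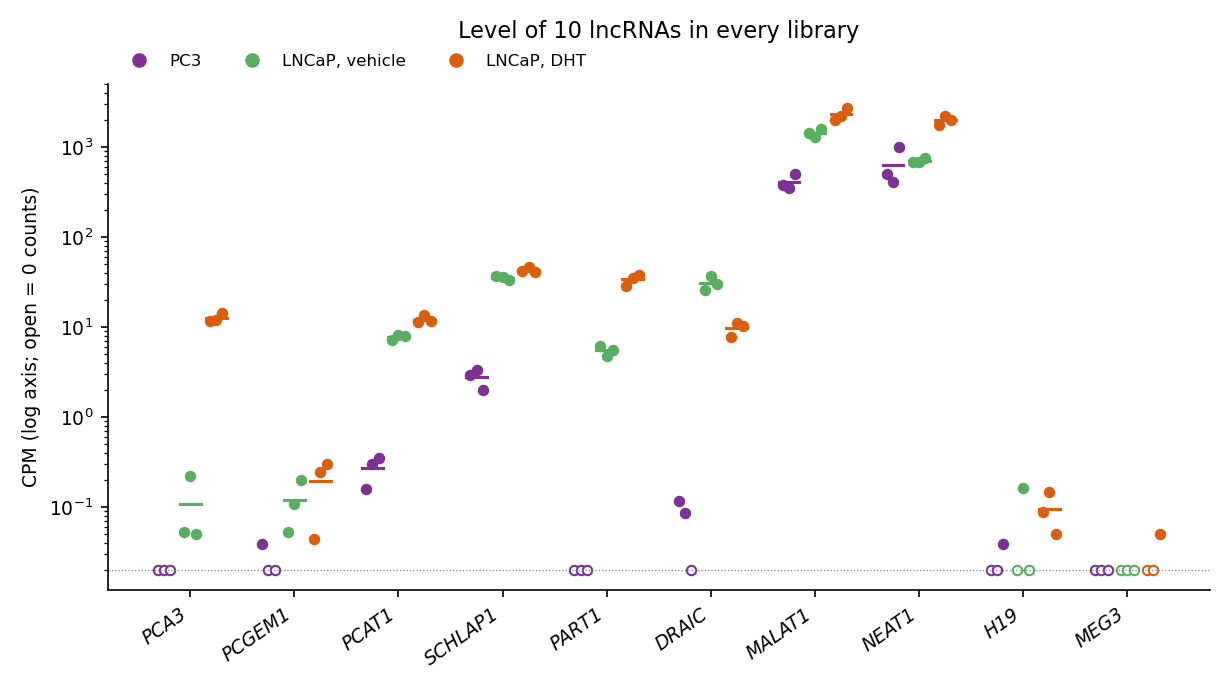
The level of each of the 10 lncRNAs in every library in CPM, on a log axis, with 1 point per library and a bar at the mean of a group whose libraries all held counts. Open points on the dotted line are libraries with 0 counts. PCA3 and PART1 had 0 counts in all 3 PC3 libraries, DRAIC was lower with DHT than with vehicle, and PCGEM1, H19 and MEG3 had at most 6 counts in any library.

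Between the cell lines, PCA3, PART1, DRAIC, PCAT1 and PCGEM1 had at most 9 counts in any PC3 library, whereas SCHLAP1 was measured in PC3 cells too, at a lower level than in LNCaP cells. In PC3 cells against DHT-treated LNCaP cells, all 7 lncRNAs that were tested were called and lower, whereas 46% of the 12541 genes tested were called and 22.1% were called and lower. PCA3, PCAT1, SCHLAP1, PART1 and DRAIC passed the filter on low values only through the LNCaP libraries, so their difference followed from how they were kept and the count of 7 is no evidence of its own. Levels of PC3 and DHT-treated LNCaP libraries did not overlap for these 7, nor for 86.4% of the genes tested. Against vehicle-treated LNCaP cells, 5 of 6 tested lncRNAs were called, all lower in PC3 cells. Of the 12686 genes tested there, 43.2% were called, 21% were called and lower, and 85.9% had groups that did not overlap. PCA3 was not tested in that comparison, because neither group reached the filter.

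With DHT, 3 of the 7 tested lncRNAs rose (PCA3, PART1 and NEAT1) and 1 fell (DRAIC). PCA3 passed the filter on low values only through the DHT-treated libraries, so that its rise followed from how it was kept. The other 6 passed it in both groups. Among the 11697 genes tested, 14% were called, 6.54% as higher and 7.49% as lower with DHT. MALAT1, PCAT1 and SCHLAP1 also passed the adjusted p-value, but changed less than 2-fold. All 7 passed the adjusted p-value alone, as did 74.9% of all genes tested, and the DHT and vehicle libraries did not overlap for any of the 7, nor for 77.9% of all genes. The median log2 fold change was 0.69 over the 7 lncRNAs and -0.01 over all genes tested.

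**Figure D2:**
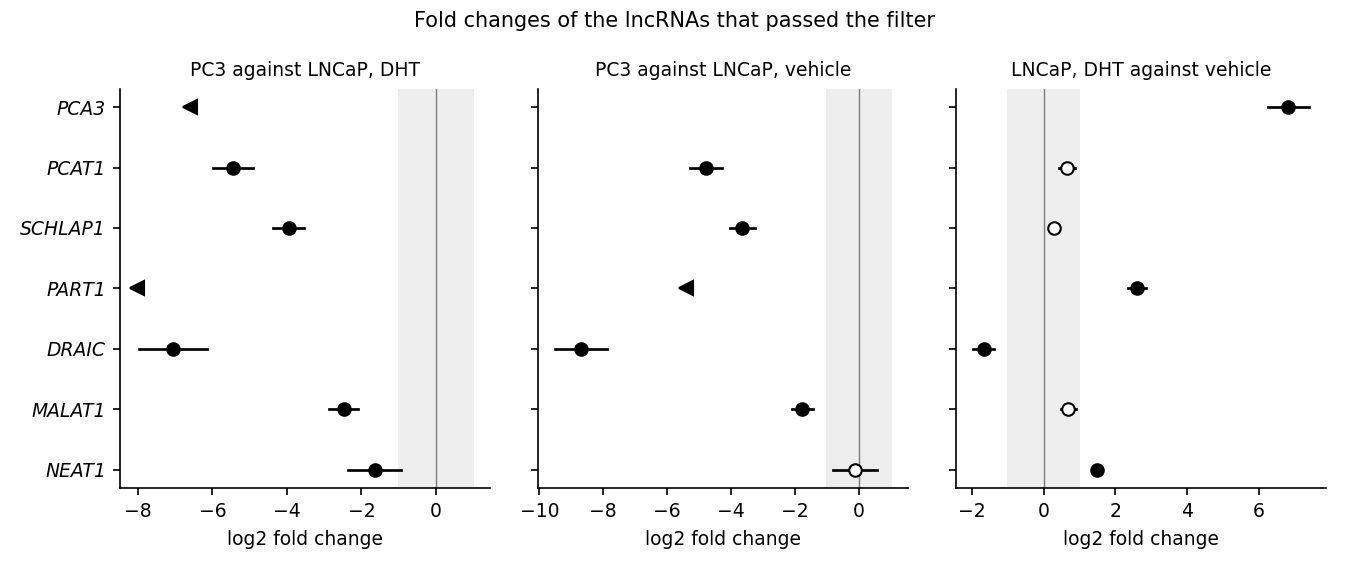
Log2 fold changes of the 7 lncRNAs that passed the filter in at least 1 comparison. Lines are 95% confidence intervals derived from edgeR's quasi-likelihood test, and the range under a 2-fold change is grey. Filled points were called and open points were not, and triangles are lower bounds for lncRNAs with 0 counts in every PC3 library. The points left of the grey range in the PC3 panels are the lncRNAs lower in PC3 cells, and NEAT1 was the tested lncRNA that was not called against vehicle.

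PCA3, the urinary marker, lies on chromosome 9 of GRCh38 from 76691980 to 76863307 on the plus strand. It had 263, 243 and 282 counts in the DHT-treated LNCaP libraries, 1, 4 and 1 in the vehicle-treated libraries and 0 in each PC3 library. Outside the DHT-treated libraries PCA3 was thus at or close to the limit that a count of 0 allows. DHT raised PCA3 from 0.108 ± 0.097 CPM to 12.7 ± 1.35 CPM (SD, n = 3 each). Scaled for library size, the ratio of the summed counts (788 against 6) was 120, with an exact 95% counting interval of 54.8 to 328, and edgeR's quasi-likelihood test gave an adjusted p = 1.03e-10. With 6 counts in the vehicle group the size of the ratio rests on few reads, and its fitted log2 fold change of 6.83 was 7.78 without vehicle replicate 2 and 6.50 to 6.87 without any other library, with the call kept. Against PC3 cells PCA3 was at least 97.0-fold higher in DHT-treated LNCaP cells, with the limit of 3 counts taken per library (edgeR quasi-likelihood test, adjusted p = 1.15e-06). In both comparisons PCA3 passed the filter only through the DHT-treated libraries, so its p-values are no evidence of their own.

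PART1 lies on chromosome 5 from 60487713 to 60548813 on the plus strand and is known as an androgen-regulated prostate transcript. It had 647, 713 and 746 counts with DHT, 119, 86 and 111 with vehicle and 0 in each PC3 library. All LNCaP libraries therefore held it, with the lowest DHT library far above the highest vehicle library. The level was 33.9 ± 4.46 CPM with DHT and 5.53 ± 0.764 CPM with vehicle (SD, n = 3 each). PART1 rose by a log2 fold change of 2.61 (SE 0.12, edgeR quasi-likelihood test, adjusted p = 4.21e-10). PC3 cells were lower than LNCaP cells by at least 260-fold with DHT and by at least 42.4-fold with vehicle.

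DRAIC, known as a lncRNA that androgen represses, lies on chromosome 15 from 69462921 to 69843120 on the plus strand and was the member that moved against the others. The vehicle-treated libraries held 497, 675 and 593 counts, the DHT-treated libraries 174, 227 and 204, and the PC3 libraries 3, 2 and 0. All 3 groups were apart. DRAIC fell with DHT from 31.1 ± 5.56 to 9.76 ± 1.77 CPM (SD, n = 3 each), a log2 fold change of -1.67 (SE 0.14, edgeR quasi-likelihood test, adjusted p = 1.51e-07). Its ratio over PC3 cells, where 5 reads were counted in all, was 457 for vehicle-treated cells (exact 95% counting interval 195 to 1408). For DHT-treated cells it was 143 (60.9 to 441), with adjusted p = 2.05e-07 for vehicle and 9.97e-07 for DHT from edgeR. Against PC3 cells DRAIC passed the filter only through the LNCaP libraries, so those p-values are no evidence of their own. Those ratios rest on few PC3 reads: without PC3 replicate 1 the fitted log2 fold changes went from -8.70 to -9.35 and from -7.05 to -7.69, with the calls kept.

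The transcription start of these 3 lncRNAs is shown because DHT changed their level past the 2-fold limit. Each line gives 250 bases before the start in lower case and the first 50 transcribed bases in capitals, from RefSeq on GRCh38.p14, plus strand. The RefSeq spans of PCA3 and DRAIC begin at 76764436 and 69561720, inside the longer GENCODE spans given above.
PCA3, chr9:76764186-76764485: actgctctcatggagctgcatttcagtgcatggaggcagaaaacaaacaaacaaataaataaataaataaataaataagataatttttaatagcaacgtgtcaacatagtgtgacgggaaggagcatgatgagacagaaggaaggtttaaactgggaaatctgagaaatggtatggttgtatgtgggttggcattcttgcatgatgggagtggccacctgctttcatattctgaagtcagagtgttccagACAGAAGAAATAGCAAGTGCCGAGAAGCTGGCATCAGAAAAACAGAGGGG
PART1, chr5:60487682-60487981: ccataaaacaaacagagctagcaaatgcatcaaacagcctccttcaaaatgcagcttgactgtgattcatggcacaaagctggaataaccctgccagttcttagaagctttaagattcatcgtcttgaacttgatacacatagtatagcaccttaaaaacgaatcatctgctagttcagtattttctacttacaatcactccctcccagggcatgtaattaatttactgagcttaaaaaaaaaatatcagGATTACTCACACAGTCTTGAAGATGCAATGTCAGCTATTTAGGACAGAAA
DRAIC, chr15:69561470-69561769: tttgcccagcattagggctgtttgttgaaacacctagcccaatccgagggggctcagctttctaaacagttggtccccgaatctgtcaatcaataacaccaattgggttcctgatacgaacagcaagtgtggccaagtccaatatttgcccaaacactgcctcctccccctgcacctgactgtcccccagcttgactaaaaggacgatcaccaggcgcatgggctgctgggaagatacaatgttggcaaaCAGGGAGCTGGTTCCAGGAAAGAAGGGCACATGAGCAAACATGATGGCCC
The androgen receptor binds DNA as a pair, and its sites are built from the half-sites AGAACA and TGTTCT, which are each other's reverse complement. Neither half-site was present in these 3 windows, while 14.8% of the 35116 RefSeq promoters of the same length held at least 1. The letters AGAACA followed after 3 bases by TGTTCT occurred in 1 of all promoters. Of the other members, PCGEM1, H19 and 1 of the MALAT1 windows held 1 half-site each. Such a search says only whether these letters lie in the window. NEAT1, SCHLAP1 and PCAT1 were not searched. The 3 windows were also lower in G and C (40.7% in PCA3, 37.3% in PART1 and 52.0% in DRAIC) than the median promoter (58.7%).

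NEAT1, the paraspeckle RNA, lies on chromosome 11 from 65422774 to 65445540 on the plus strand. It had 39190, 44413 and 39587 counts with DHT and 13147, 12377 and 14694 with vehicle, whereas the PC3 libraries held 12632, 9501 and 25157. The DHT-treated libraries were highest, and PC3 replicate 3 stood apart from the other PC3 libraries and above every vehicle library. NEAT1 rose with DHT from 705 ± 36.2 to 1980 ± 219 CPM (SD, n = 3 each), a log2 fold change of 1.49 (SE 0.07, edgeR quasi-likelihood test, adjusted p = 3.41e-10). PC3 cells, with 635 ± 314 CPM (SD, n = 3), were lower than DHT-treated LNCaP cells by a log2 fold change of -1.64 (SE 0.30, adjusted p = 0.00116 from edgeR). Against vehicle-treated cells the difference of PC3 cells was -0.13 on the log2 scale (95% confidence interval -0.81 to 0.54, adjusted p = 0.680 from edgeR), so either direction was within the error. Without PC3 replicate 3 it was -0.62 (adjusted p = 6.09e-05 from edgeR), still under a 2-fold change, and it was 0.01 and 0.09 without PC3 replicate 1 or 2. PC3 replicate 3 was also the PC3 library with 20 KLK3 counts, and the part of that library's makeup in its NEAT1 level was not tested.

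MALAT1 lies next to NEAT1 on chromosome 11, from 65497640 to 65508073 on the plus strand. It had 44159, 44455 and 54244 counts with DHT, 27206, 23372 and 30822 with vehicle and 9585, 8080 and 12793 in PC3 libraries, and the 3 groups did not overlap. The level was 2301 ± 390 CPM with DHT, 1425 ± 141 with vehicle and 411 ± 82.6 in PC3 cells (SD, n = 3 each). MALAT1 was lower in PC3 cells than in DHT-treated cells by a log2 fold change of -2.48 (SE 0.17, adjusted p = 2.96e-06 from edgeR) and than in vehicle-treated cells by -1.77 (SE 0.15, adjusted p = 1.01e-05). With DHT it was 0.69 higher on the log2 scale (SE 0.09, adjusted p = 2.06e-05 from edgeR), under the 2-fold limit. MALAT1 took 0.188% to 0.257% of all counts on genes with DHT, 0.134% to 0.165% with vehicle and 0.0360% to 0.0499% in PC3 cells. TALAM1, which is annotated on the opposite strand of the same region, had 27 to 226 counts per library. When reads were counted without regard to strand, those lying on both genes could be given to neither, and MALAT1 kept 539 to 4050 counts per library.

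SCHLAP1, which is known to bind the SWI/SNF chromatin-remodelling complex, lies on chromosome 2 from 180692104 to 180916939 on the plus strand. It had 929, 940 and 812 counts with DHT, 699, 650 and 662 with vehicle and 75, 77 and 51 in PC3 libraries. The LNCaP groups lay far above PC3 cells and close to each other, although they did not overlap. SCHLAP1 was 43.0 ± 2.99 CPM with DHT, 35.3 ± 1.54 with vehicle and 2.77 ± 0.685 in PC3 cells (SD, n = 3 each). The log2 fold change of PC3 cells was -3.95 (SE 0.18, adjusted p = 3.34e-07 from edgeR) against DHT-treated and -3.65 (SE 0.17, adjusted p = 4.89e-07) against vehicle-treated cells. In these comparisons SCHLAP1 passed the filter only through the LNCaP libraries, so the p-values are no evidence of their own. DHT against vehicle gave 0.285 (SE 0.06, adjusted p = 0.00106 from edgeR), and 0.14 with unstranded counts. In 1 fit of all 9 libraries the adjusted p-value of that difference was 0.0581 from edgeR.

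SCHLAP1 also had reads on the opposite strand of its exons. They made up 13.0%, 13.1% and 14.7% of the reads at the gene in vehicle-treated libraries, 4.03%, 5.62% and 5.03% in DHT-treated libraries and 10.7%, 8.33% and 15.0% in PC3 libraries. Over all genes the share was 2.33% to 3.06%, so every library was above its background at SCHLAP1. In counts, the opposite strand held 105, 97 and 114 reads with vehicle and 39, 56 and 43 with DHT, and the groups did not overlap, while reads on the SCHLAP1 strand were higher with DHT. At the other members with at least 100 reads in a group, the share was at most 3.36%.

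**Figure D3:**
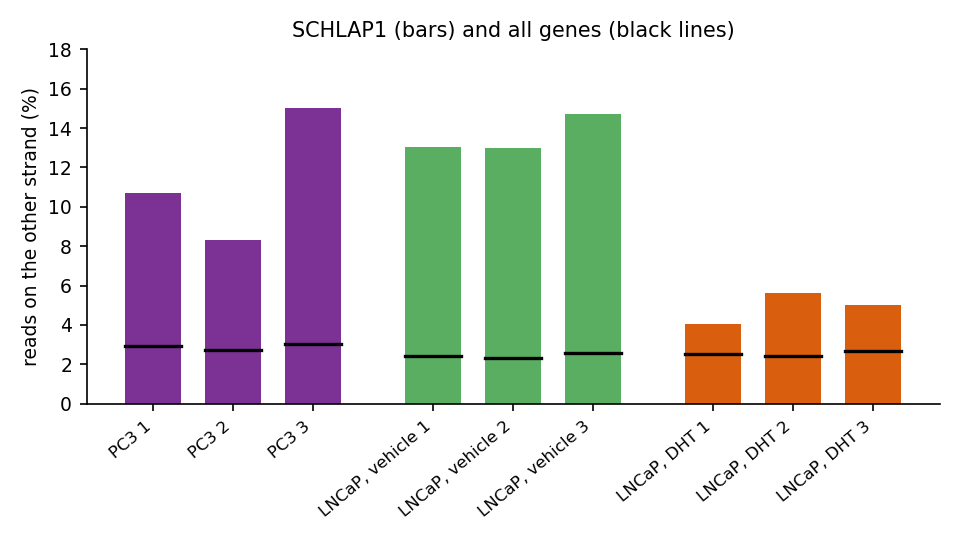
The share of reads at SCHLAP1 that lay on the opposite strand, in percent, with 1 bar per library, and the share over all genes of that library as a black line. DHT-treated LNCaP libraries lay between 4.03% and 5.62%, below the vehicle-treated libraries (13.0% to 14.7%), and every bar was above its line.

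PCAT1, a lncRNA from the gene desert before MYC, lies on chromosome 8 from 126556323 to 127419050 on the plus strand. It had 252, 273 and 232 counts with DHT, 139, 150 and 155 with vehicle and 4, 7 and 9 in PC3 libraries, in 3 groups that did not overlap. The level was 12.2 ± 1.17 CPM with DHT, 7.80 ± 0.478 with vehicle and 0.273 ± 0.103 in PC3 cells (SD, n = 3 each). The log2 fold change of PC3 cells was -5.45 (SE 0.23, adjusted p = 2.32e-07 from edgeR) against DHT-treated and -4.79 (SE 0.22, adjusted p = 3.96e-07) against vehicle-treated cells. In these comparisons PCAT1 passed the filter only through the LNCaP libraries, so the p-values are no evidence of their own. DHT against vehicle gave 0.64 (SE 0.10, adjusted p = 8.18e-05 from edgeR), under the 2-fold limit.

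PCGEM1, H19 and MEG3 were at the limit of detection and were not tested. PCGEM1, a prostate lncRNA on chromosome 2 (192749845 to 192776899, plus strand), had 1, 5 and 6 counts with DHT, 1, 2 and 4 with vehicle and 1, 0 and 0 in PC3 libraries. The DHT and vehicle libraries overlapped, with a ratio of 1.56 and an exact 95% counting interval of 0.568 to 4.69. DHT-treated LNCaP cells over PC3 cells gave a ratio of 14.2 with an interval of 2.10 to 605, which rests on 12 reads against 1, and 1 library of each group held 1 count. H19, on chromosome 11 from 1995166 to 2004552 on the minus strand, had 2, 3 and 1 counts with DHT, 0, 3 and 0 with vehicle and 0, 0 and 1 in PC3 libraries. MEG3, on chromosome 14 from 100779410 to 100861031 on the plus strand, had 1 count in 1 DHT-treated library and 0 in the other 8. H19 and MEG3 were thus at or under 3 counts in every library, and no fold change is given. IGF2, a fetal growth factor gene that is imprinted with H19, had at most 2 counts in a library. Beside MEG3, DLK1, a ligand-like membrane protein, had 0 counts in all libraries, whereas RTL1, a gene derived from a retrotransposon, had 0 counts in LNCaP libraries and 0.476 ± 0.072 CPM (SD, n = 3) in PC3 cells, with at most 13 counts.

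Levels of different lncRNAs can be set side by side only per length, and the length depends on the annotation. Over all annotated exons, DHT-treated LNCaP cells held 220 ± 37.4 CPM per kb of MALAT1, 87.0 ± 9.63 of NEAT1 and 29.9 ± 2.08 of SCHLAP1 (SD, n = 3 each). This order was the same with the length of the longest transcript and with the exons inside the RefSeq span of each gene. However, these lengths differed little for MALAT1 (10434 or 8779 bases), NEAT1 (22767 or 22743) and SCHLAP1 (1436), so the order was hardly put to a test. The length of a short NEAT1 transcript was not tried, so the place of NEAT1 holds only for the length of the long one. PART1 followed with 2.67 ± 0.351, PCA3 with 0.893 ± 0.0952, PCAT1 with 0.657 ± 0.0630 and DRAIC with 0.311 ± 0.0562 CPM per kb. The intervals of mean ± SD of these neighbours did not overlap. Per kb of the longest transcript, however, PCAT1 (6.10 ± 0.585) and PART1 (5.62 ± 0.739) came before PCA3 (3.23 ± 0.344) and DRAIC (1.08 ± 0.196), with PCAT1 and PART1 within their SD. The annotation gives PCAT1 18491 bases of exons in 34 transcripts, of which the longest has 1992 bases, and gives DRAIC 31409 bases in 74 transcripts. In vehicle-treated cells the order over all exons was MALAT1 (137 ± 13.6), NEAT1 (31.0 ± 1.59), SCHLAP1 (24.6 ± 1.07), DRAIC (0.989 ± 0.177), PART1 (0.436 ± 0.0602) and PCAT1 (0.422 ± 0.0258 CPM per kb), and the last 2 did not differ beyond their SD. In PC3 cells MALAT1 (39.4 ± 7.92) and NEAT1 (27.9 ± 13.8) did not differ beyond their SD either, SCHLAP1 came next with 1.93 ± 0.477, and the others were under 0.02 CPM per kb.

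**Figure D4:**
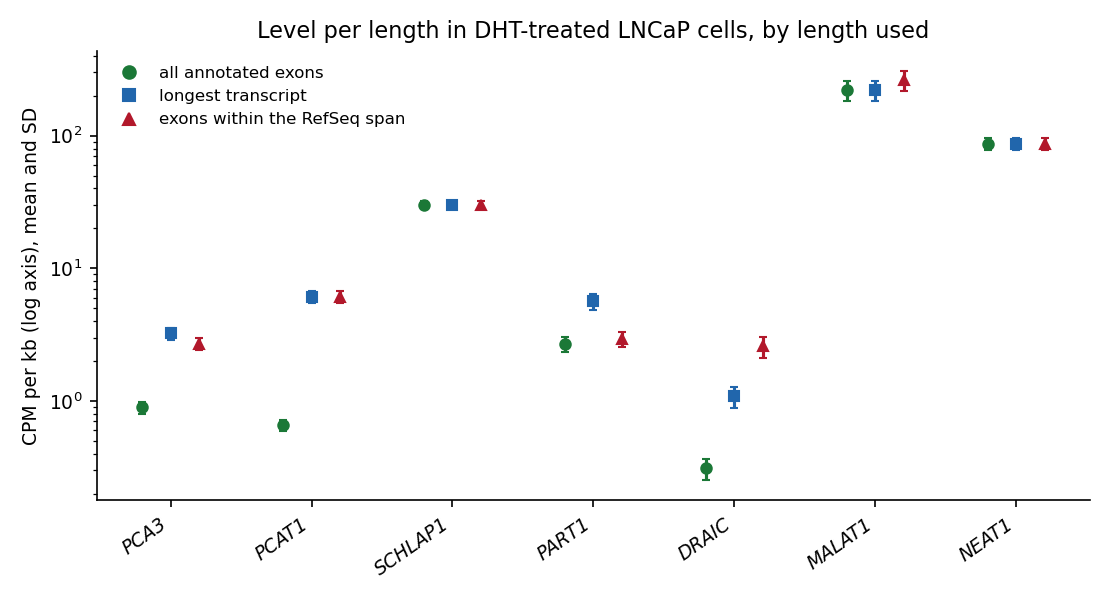
The level of 7 lncRNAs in DHT-treated LNCaP cells in CPM per kb on a log axis, as the mean and SD of 3 libraries, with 3 ways to take the length. MALAT1, NEAT1 and SCHLAP1 kept their places, but their lengths differed little between the 3 ways, and a short NEAT1 length was not tried. PCAT1 moved from 0.657 to 6.10 and DRAIC from 0.311 to 2.58 with the length used.

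The protein-coding genes around the lncRNAs did not all move with them. Distances here are from the RefSeq span of each lncRNA. For PCAT1 (127013154 to 127021014) and DRAIC (69561720 to 69571440) that span is much shorter than the GENCODE span given above. From the GENCODE spans the distances of LRATD2, RPLP1 and TLE3 are shorter, and LRATD2 overlaps PCAT1. PRUNE2, in which PCA3 lies on the opposite strand, had 498 ± 14.1 CPM with DHT, 375 ± 12.2 with vehicle and at most 2 counts in a PC3 library. PRUNE2 was thus near 0 where PCA3 was 0, but differed by 0.41 on the log2 scale with DHT (SE 0.04, adjusted p = 9.29e-07 from edgeR), where PCA3 rose 120-fold. Strand was kept in the counting, and reads opposite to PCA3 on its exons numbered 6 in all with DHT and 3 with vehicle. Whether some of the 6 PCA3 reads with vehicle came from PRUNE2 was not tested. PDE4D, a cyclic AMP phosphodiesterase that overlaps PART1 on the opposite strand, went the other way: it fell with DHT from 11.98 ± 1.66 to 3.09 ± 0.089 CPM (log2 fold change -1.95, SE 0.13, adjusted p = 2.15e-08 from edgeR). DEPDC1B, 49.3 kb beyond PART1, also fell (log2 fold change -1.87, SE 0.08, adjusted p = 1.90e-10 from edgeR). TLE3, a transcriptional corepressor 476 kb from DRAIC, fell with DHT as DRAIC did, whereas RPLP1, a ribosomal protein gene nearer to it at 106 kb, gave -0.28 (adjusted p = 2.44e-05 from edgeR) and was not called. The log2 fold change of TLE3 was -1.29 (SE 0.06, adjusted p = 3.53e-10 from edgeR). GCNT1 near PCA3 (0.43) and CWC22 (0.22) and UBE2E3 (-0.52) around SCHLAP1 were not called either. FRMD8, 9.27 kb before NEAT1, was not called in any comparison, and gave -0.05 with DHT (adjusted p = 0.517 from edgeR). TMEFF2, 555 kb before PCGEM1, rose with DHT by 1.35 (SE 0.18, adjusted p = 1.71e-05 from edgeR), and LRATD2, 455 kb before PCAT1, gave 0.05 (adjusted p = 0.321).

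**Figure D5:**
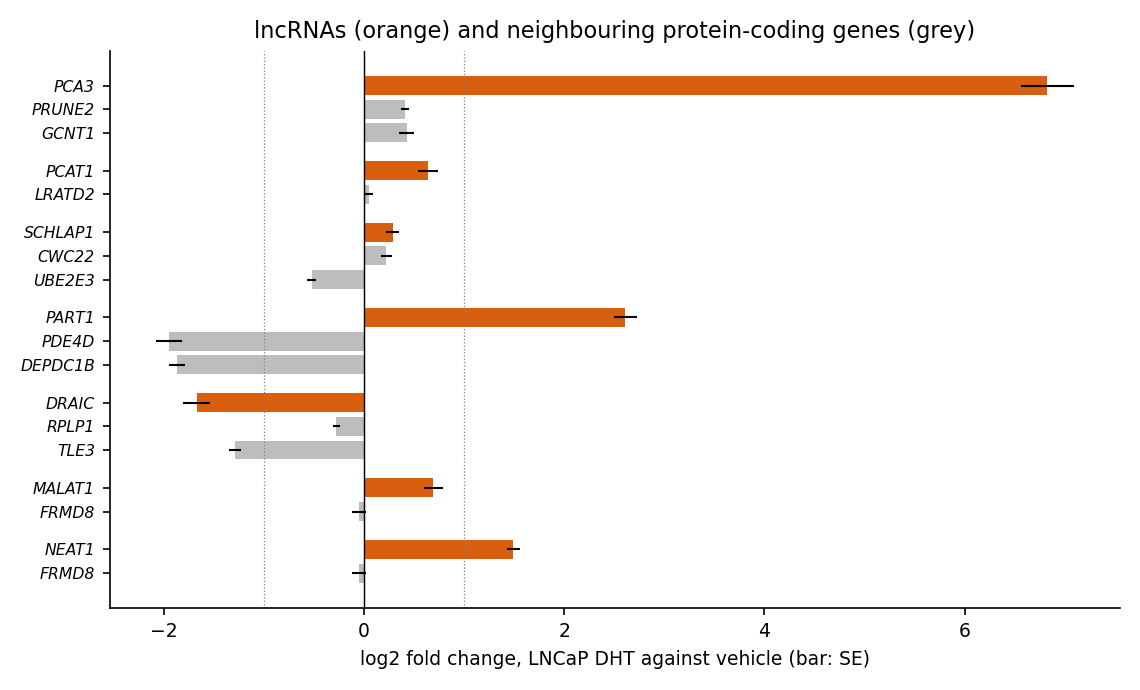
Log2 fold changes of DHT against vehicle in LNCaP cells with their standard errors, for 7 lncRNAs (orange) and the overlapping or nearest protein-coding genes described in the text (grey), and dotted lines at a 2-fold change. PDE4D and DEPDC1B lie left of the line beside PART1, which lies right of it, and TLE3 lies left of it together with DRAIC, while RPLP1 does not.

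Other lncRNAs linked to cancer gave a wider view. Of 60 on a list, 32 were tested for DHT, and 3 rose and 5 fell (25% called, against 14% of all genes tested). ARLNC1, an androgen-receptor-regulated lncRNA, rose from 3 to 9 counts per vehicle library to 216 to 325 per DHT library. CTBP1-AS, an antisense transcript known to be raised by androgen, rose from 3.22 ± 0.180 to 37.1 ± 2.76 CPM, and TMPO-AS1 fell from 18.6 ± 0.222 to 4.85 ± 1.17 CPM (SD, n = 3 each). Between PC3 and DHT-treated LNCaP cells 10 of 36 were called as higher in PC3 cells and 7 as lower (47.2% in all, against 46% of all genes), and against vehicle-treated cells 10 and 12 of 37 (59.5%, against 43.2%). MIR31HG, the host transcript of miR-31, had 867 to 1521 counts in PC3 and at most 1 in any LNCaP library, so that not all cancer lncRNAs were lower in PC3 cells. CRNDE had at most 3 counts in PC3 libraries, 254 to 376 with DHT and 732 to 785 with vehicle. ARLNC1 with DHT, and MIR31HG and CRNDE between the lines, passed the filter only through the groups where they were higher. Their differences thus followed from how they were kept. The shares called include such genes and are no evidence of their own.

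Genes for proteins that work with the members were counted next. Of 18 genes for paraspeckle proteins, which assemble on NEAT1, 0 rose and 2 fell with DHT (11.1% called, near the 14% of all genes). HNRNPA1, a splicing regulator among those that fell, went from 1307 ± 89.1 to 548 ± 42.8 CPM (log2 fold change -1.25, SE 0.06, adjusted p = 5.35e-10 from edgeR). The median log2 fold change of the 18 with DHT was -0.41, against -0.01 over all genes. A median below 0 was not particular to the paraspeckle genes. It was -0.27 for the nuclear speckle genes and -0.36 for the PRC2 and SWI/SNF genes described below. For the other cancer lncRNAs above it was -0.29, whereas it was 0.22 for the imprinted genes. Of the 18, 4 were called between PC3 and each LNCaP group (22.2%, against 46% and 43.2% of all genes), including TAF15, which was lower in PC3 cells. Of 14 genes for nuclear speckle proteins, 0 were called in any comparison by edgeR's quasi-likelihood test and 0 by DESeq2. Over all genes, 46%, 43.2% and 14% were called for PC3 against DHT-treated cells, PC3 against vehicle-treated cells and DHT against vehicle. In the same order, 11, 10 and 12 of the 14 passed edgeR's adjusted p-value, but changed less than 2-fold. Over all genes, 10530 of 12541 passed it for PC3 against DHT-treated and 10577 of 12686 for PC3 against vehicle-treated cells. For DHT against vehicle, 74.9% of all genes tested passed it. Of 19 genes for the chromatin complexes PRC2 and SWI/SNF, to which several lncRNAs bind, EZH2, the methyltransferase of PRC2, was the one called with DHT (5.26% of the list, against 14% of all genes), although 17 passed the adjusted p-value alone. EZH2 fell from 85.9 ± 4.65 to 34.3 ± 3.45 CPM (log2 fold change -1.32, SE 0.07, adjusted p = 1.13e-09 from edgeR). SMARCD1, a subunit of SWI/SNF, was higher in PC3 cells (139 ± 7.58 CPM) than with DHT (39.6 ± 2.28) or vehicle (51.3 ± 2.69), and ARID2 was lower, with 37.8 ± 1.42 against 76.1 ± 1.73 and 89.1 ± 2.84 CPM (SD, n = 3 each). Of 9 imprinted genes tested with DHT, 3 rose and 1 fell (44.4% called, against 14% of all genes). The one that fell was GRB10, an inhibitor of insulin signalling, from 819 ± 49.5 to 128 ± 1.61 CPM. Of 10 tested between the lines, 6 were called against DHT-treated (60%, against 46% of all genes) and 8 against vehicle-treated cells (80%, against 43.2%). Among them NDN, a growth suppressor in neurons, had 0 counts in PC3 libraries and 616 to 818 in LNCaP libraries. PEG10 was higher in PC3 cells (220 ± 74.05 CPM) than with DHT (2.62 ± 0.985). NDN passed the filter only through the LNCaP libraries, and PEG10, against DHT-treated cells, only through the PC3 libraries. Their differences there followed from how they were kept, and the shares called include them.

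The genes whose pattern over the 9 libraries was most like that of a member were found by the root mean square distance of log2(CPM + 1), each gene centred on its mean, among 8137 genes. The nearest was BDH1 for SCHLAP1 (distance 0.076), DNALI1 for PCAT1 (0.078), TNRC6C-AS1 for MALAT1 (0.093), H4C8 for NEAT1 (0.142), SAT1 for PCA3 (0.148), DPYSL5 for DRAIC (0.150) and RAB6C-AS1 for PART1 (0.209). With 3 groups the distance mostly reflects the 3 group means. Adding 1 to the CPM flattens differences between values near 0. SAT1 had 74.1 CPM in PC3 cells, 88.1 with vehicle and 1195 with DHT, where PCA3 had 0, 0.108 and 12.7 CPM. The likeness of SAT1 to PCA3 is therefore one of neither level nor fold change. DPYSL5 had the pattern of DRAIC, with 0 in PC3 cells, 26.0 CPM with vehicle and 7.15 CPM with DHT.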

How the data were processed

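Poly(A)-enriched RNA of 9 libraries was sequenced as 74-nt single-end reads. Per the study's methods and the submitters' processing notes, adapters were trimmed with cutadapt, reads were aligned to GRCh38 (hg38) with STAR, duplicates were removed with UMI-tools and the reads were mapped again. The notes name cutadapt 4.1, STAR 2.7.7a and UMI-tools 1.1.2. The authors deposited counts, whole numbers of reads per gene without normalization, in 1 joint table and in 1 STAR file per library. The joint table carries the forward-strand STAR counts, with equality in all 253944 values, and 0 columns were left out.

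Members and lists were chosen with earlier results of these data known. All 10 members, the 3 called genes of a list with the largest change, the overlapping and nearest protein-coding genes and the 2 genes of most similar pattern were named by rule. From these, the gene of second rank by likeness and some list genes, neighbours and sequences are not reported here. Genes over 3 CPM in at least 3 libraries of a comparison were tested on its 6 libraries with TMM factors and the quasi-likelihood test of edgeR 4.0.16 (R 4.3.3), with Benjamini-Hochberg adjustment over all genes. CPM use TMM factors over 9 libraries. The batch term of the study was left out because its batches are not named in the sources used here. The scripts were also tested on simulated data. Exons and the printed spans of the lncRNAs are from GENCODE 44. Transcription starts are from RefSeq, and distances to neighbours were measured from the RefSeq spans. Of the distinct 74-base stretches of a member's transcripts, at most 3.39% also occur elsewhere with every base equal. The share of reads that fell on such stretches was not measured.

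The groups share replicate numbers. Over 11433 genes, each library's deviation from its group mean was correlated with that of the library of the same number in the other LNCaP group. The 3 correlations were 0.194, 0.233 and 0.205, against -0.249 to 0.051 for LNCaP libraries of different numbers. PC3 and LNCaP libraries of different numbers reached 0.189, so a value of this size does not by itself show a pairing. Any pairing of the LNCaP libraries rests on the counts alone. The main tests did not use it, and the replicate number was a block only in an alternative. For PC3 and LNCaP libraries of the same number the correlations were -0.185 to 0.063.

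Exact intervals and upper limits cover counting error only, whereas the confidence intervals derived from edgeR's test also include the spread between libraries. For the latter, the SE was the absolute log2 fold change over the square root of the test's F statistic. Each interval was the log2 fold change plus and minus the SE times a t quantile. Ratios of low counts have exact binomial intervals. Results were recomputed with size factors or the Wald test from DESeq2 1.42.0, with the likelihood ratio test of edgeR, and with a replicate block. Other alternatives dropped the filter, required 10 counts per library, dropped the fold limit, ignored strand, fitted all 9 libraries at once, left out each library, or took other lengths.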

Additional observations from a re-analysis of the deposited data

Results flagged for a closer look

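Reads on the opposite strand of SCHLAP1, which enter its level only where strand is ignored, were above the share over all genes (2.33% to 3.06% per library) in all 3 groups. They were 10.965% of 228 reads in PC3 cells (exact 95% binomial interval 7.22 to 15.8), 4.895% of 2819 reads in DHT-treated LNCaP cells (4.13 to 5.76) and 13.58% of 2327 reads in vehicle-treated LNCaP cells (12.2 to 15.0). These reads were 25, 138 and 316 in number. The difference in share between the groups was not tested, and its cause was not tested. No formal outlier test was run on groups of 3 libraries.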

How the results depend on the processing

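The calls of the lncRNAs changed with which genes were tested. Without a filter on low counts, 8 of 10 members were called for PC3 against DHT-treated and 6 of 9 for PC3 against vehicle-treated cells, and in 1 fit of all 9 libraries 6 of 7 were called for the latter. With at least 10 counts in every library, 3 members were tested and called for PC3 against DHT-treated cells and 2 of 3 were called for PC3 against vehicle-treated cells, because members with low counts in PC3 cells were not tested. For DHT against vehicle 3 of 6 were called there. With the adjusted p-value alone, 7 members passed for DHT against vehicle. The number of genes called was 9147, 8713 and 2941 (PC3 against DHT, PC3 against vehicle, DHT against vehicle) without a filter on low counts, and 10530, 10577 and 8763 with the adjusted p-value alone. The log2 fold change of NEAT1 in PC3 against vehicle-treated cells turned from -0.13 to 0.0075 without PC3 replicate 1 and to 0.0891 without PC3 replicate 2, and ranged from -0.62 to 0.09 when each library was left out in turn. With the replicate number as a block, 5756, 5495 and 1638 genes and 7, 5 and 4 members were called, and it changed no call of a member. Fold changes of members tested kept their direction and their call in all other alternatives. The adjusted p-value alone crossed 0.05 for SCHLAP1 with DHT in 1 fit of all 9 libraries (0.0581) and for NEAT1 in PC3 against vehicle-treated cells without PC3 replicate 3 (6.09e-05), both from edgeR and both under a 2-fold change. Levels per kb moved with the length used for PCA3, PCAT1, PART1, DRAIC and MALAT1, and the exons inside the RefSeq span were added after seeing the data. Depth limits PCGEM1, H19, MEG3 and the vehicle level of PCA3, which rest on 0 to 6 counts per library.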
